A study of Saccharomyces cerevisiae with 3 samples.

Results

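Large ribosomal subunit assembly factors are the proteins that build the 60S subunit of the yeast ribosome, and 51 of them were followed here at the mRNA level. They were chosen by name, as a list of 53 nucleolar, nuclear and cytoplasmic factors; no measured value enters the rule, but the list was drawn up with earlier results of these data known. Of these 53, 51 are listed in column 1 of all 5 tables of the series, among 5293 open reading frames (ORFs) in the RNA-seq tables. RRP8 (YDR083W), an rRNA methyltransferase, and SSF1 (YHR066W), a factor with a Brix domain, are not listed and have no value here. All 51 passed the filter on low values, a mean of at least 1 RPKM over the libraries.

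The cells were Saccharomyces cerevisiae BY4741, a haploid laboratory strain of mating type a, grown to mid-log phase in YPD, which is rich medium with glucose. The 3 libraries held cytoplasmically enriched RNA of this strain, medium and phase, and differed in how that RNA was prepared. One was made from RNA captured on Dynabeads with oligo(dT), which bind poly(A) tails; one from RNA depleted of rRNA with RiboMinus probes; and one from unselected total RNA. With 1 library for each preparation, differences have no replicate check and carry no p-values, and the labels do not say whether the 3 came from 1 culture. The a-specific gene STE2 had 483, 512 and 429 RPKM in the poly(A)-selected, RiboMinus and unselected libraries, and the alpha-specific gene STE3 had 5.59, 2.15 and 6.53 RPKM. MFA2, also a-specific, had 2066, 346 and 788 RPKM, and the alpha-specific MF(ALPHA)1 had 5.62, 15.3 and 1.81 RPKM. RPKM is the read count scaled by coding length in kilobases and by the reads of the library. The step between low values gives about 6467527 reads for the poly(A)-selected, 1317752 for the RiboMinus and 4452596 for the unselected library. The assembly factors took 1.33%, 1.38% and 1.19% of these, with at least 458, 58 and 291 reads each.

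The large subunit begins in the nucleolus as part of a long rRNA precursor made by RNA polymerase I. Assembly factors fold, cut and modify this RNA and place ribosomal proteins on it, and most of them leave the particle before it reaches the cytoplasm. RNA helicases remodel the RNA, AAA ATPases and GTPases drive the release of factors, and a last set escorts the particle through the nuclear pore and frees it for translation. In growing yeast the genes of ribosome assembly are transcribed together as the ribosome biogenesis regulon, whose promoters are known for the PAC element, read by the repressors Dot6 and Tod6, and the RRPE element, read by Stb3.

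The upstream sequences come first because they are what the 51 genes share. The PAC core GATGAG was searched on both strands, and the RRPE core AAAATTTT, which is its own reverse complement, in the 300 bases before each start codon of the R64 genome. Matches to the 2 cores were counted separately, also where they lay close together. Both cores were found upstream of 40 of 51 assembly factors, or 78.4%, against 4.98% of the 5199 ORFs kept. A PAC core alone stood upstream of 8, an RRPE core alone upstream of 3, and 0 of the 51 had neither, against 76.0% of the ORFs kept. The PAC core alone was found for NOP16, NOP4, RRP1, NOP12, LSG1, MAK5, DBP6 and DBP7, and the RRPE core alone for NOP53, SPB1 and NSA1. A match is a description of the letters and not a mapped site.

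The stretches below are shown for the 3 most abundant factors, for factors with wide differences between the libraries and for the tightest spacing of the cores. Each is written 5′ to 3′ along the coding strand, with its place in R64 and its first and last base counted back from the start codon, and capitals mark 1 PAC core (GATGAG or CTCATC) and 1 RRPE core (AAAATTTT). NOP7, RRS1 and TIF6 hold further matches in the same stretch, left in lower case.
NIP7 (chrXVI:153344-153391, plus strand, -151 to -104): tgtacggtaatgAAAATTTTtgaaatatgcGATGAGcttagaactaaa
EBP2 (chrXI:125622-125666, plus strand, -137 to -93): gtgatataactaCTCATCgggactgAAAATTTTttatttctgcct
NOP7 (chrVII:695264-695305, plus strand, -153 to -112): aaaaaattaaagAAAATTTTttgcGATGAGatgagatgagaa
LOC1 (chrVI:148867-148919, plus strand, -243 to -191): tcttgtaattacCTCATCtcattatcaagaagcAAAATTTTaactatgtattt
TIF6 (chrXVI:593258-593324, minus strand, -255 to -189): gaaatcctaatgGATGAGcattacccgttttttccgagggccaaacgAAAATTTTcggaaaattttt
RRS1 (chrXV:868192-868236, plus strand, -148 to -104): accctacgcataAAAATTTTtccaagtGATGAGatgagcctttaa
NOP2 (chrXIV:510386-510426, plus strand, -154 to -114): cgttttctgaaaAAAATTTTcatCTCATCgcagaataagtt
MAK16 (chrI:101252-101291, minus strand, -146 to -107): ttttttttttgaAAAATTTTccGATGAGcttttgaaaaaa
MDN1 (chrXII:363926-363971, minus strand, -233 to -188): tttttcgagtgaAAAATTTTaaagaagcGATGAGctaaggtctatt
NOC3 (chrXII:156434-156473, minus strand, -139 to -100): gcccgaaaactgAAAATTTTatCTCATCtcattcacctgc

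In these stretches a short spacer separates the marked cores, of 2 bases for MAK16 and NOC3, 3 for NOP2, 4 for NOP7, 8 for MDN1 and 29 for TIF6. Over the 35 factors with both cores inside 90 bases and at least 80 bases (with flanks) before the start codon, the spacer had a median of 9 and a range of 2 to 52 bases. The RRPE core lay farther from the start codon in 30 of the 35 and the PAC core in 5, among them EBP2, LOC1 and TIF6. The pair used for each factor was the closest one under this rule. Spacer, order and position of the cores were not counted for other ORFs. EBP2, LOC1, TIF6 and NOG1 also hold a PAC core nearer the start codon than the RRPE core. Among the 30, MDN1, NOP2 and NSA2 also hold a PAC core farther from it. Counting every match, RRPE cores began at a median of -142 and PAC cores at a median of -121 bases from the start codon. The map of cores by distance from the start codon shows most of them in a band around these positions, but not for every gene. The only core of DBP6 began at -53 and that of LSG1 at -67, nearer the start codon. Small-subunit assembly factors, a list of 46 kept ORFs, had both cores in 34, or 73.9%, and the 23 kept ORFs of a list of further large-subunit factors in 9, or 39.1%.

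**Figure D1:**
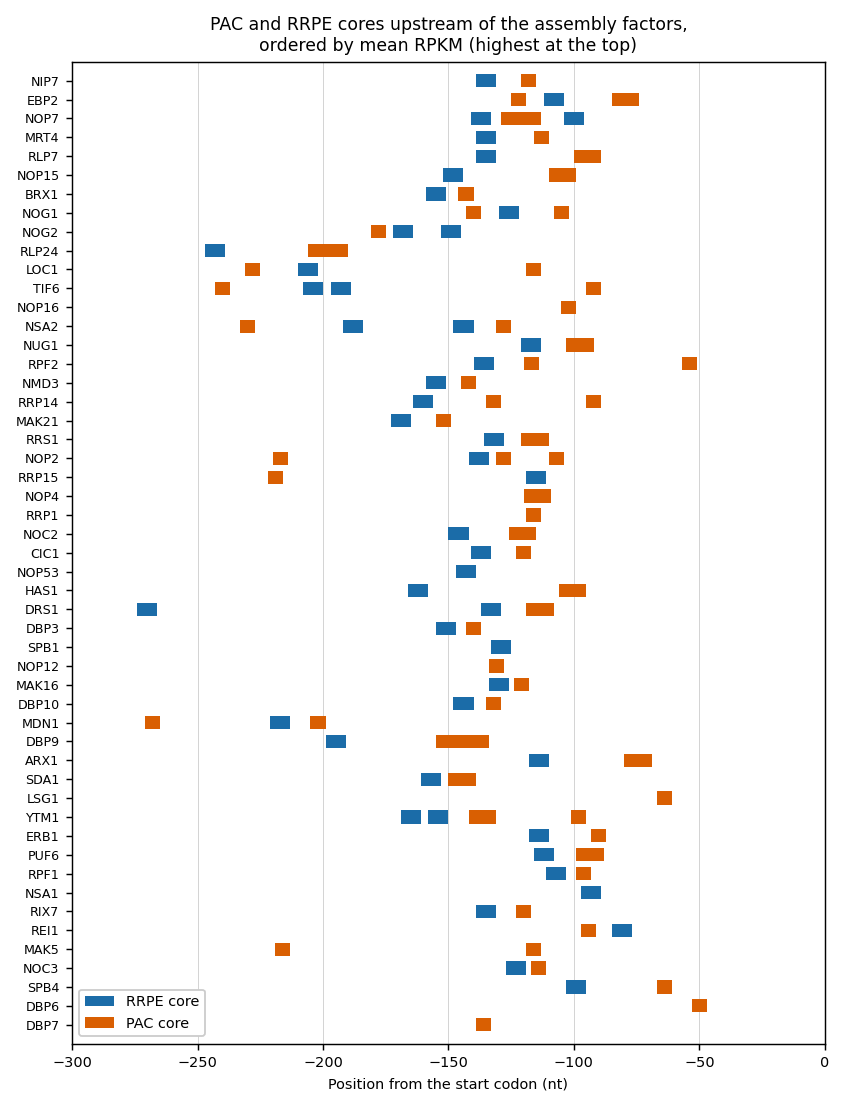
Matches to the RRPE core (blue) and the PAC core (orange) in the 300 nt before the start codon of each of the 51 assembly factors, ordered by mean RPKM with the highest at the top; the x axis is the distance from the start codon in nt. Most matches lie in a band between -200 and -80, where 43 of 49 RRPE cores and 63 of 80 PAC cores fall.

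The mRNAs of the assembly factors mostly sat above the typical yeast mRNA, with less spread than over all ORFs kept. Their median level was 154 RPKM after poly(A) selection, 131 RPKM after RiboMinus and 127 RPKM in the unselected library, which is 2.84, 2.50 and 2.62 times the median ORF of the same library. Of 51, 47, 50 and 50 lay above that median ORF, and 9, 7 and 1 reached the top 10% of all listed ORFs. In bulk RNA, fewer cells with an mRNA and fewer copies per cell cannot be told apart. The whole set spanned 37.5 to 526 RPKM after poly(A) selection, a range of 14.0-fold. After RiboMinus it spanned 48.8 to 491 RPKM, or 10.04-fold, and in the unselected library 45.3 to 254 RPKM, or 5.61-fold. The SD of log2 RPKM over the factors was 0.94, 0.76 and 0.58 in the 3 libraries, against 1.98, 1.88 and 1.89 over the ORFs kept. Small-subunit factors had SDs of 0.62, 0.69 and 0.58, so a small spread was not particular to the 51. Their medians were 85.0, 103 and 87.4 RPKM, with no test of the difference at 1 library each.

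Factors with both promoter cores had a median of 162, 135 and 141 RPKM in the poly(A)-selected, RiboMinus and unselected libraries. The 8 with the PAC core alone had 129, 117 and 107 RPKM. The least abundant factors DBP7 and DBP6 are in the PAC-only set, but the ranges of the 2 sets overlap in every library. The 3 factors with the RRPE core alone had 146, 122 and 81.8 RPKM. Over all ORFs kept, those with both cores had a median of 103 RPKM in the unselected library and those with neither 45.4 RPKM. ORFs with the PAC core alone had 46.6 RPKM there, and those with the RRPE core alone 74.35 RPKM.

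**Figure D2:**
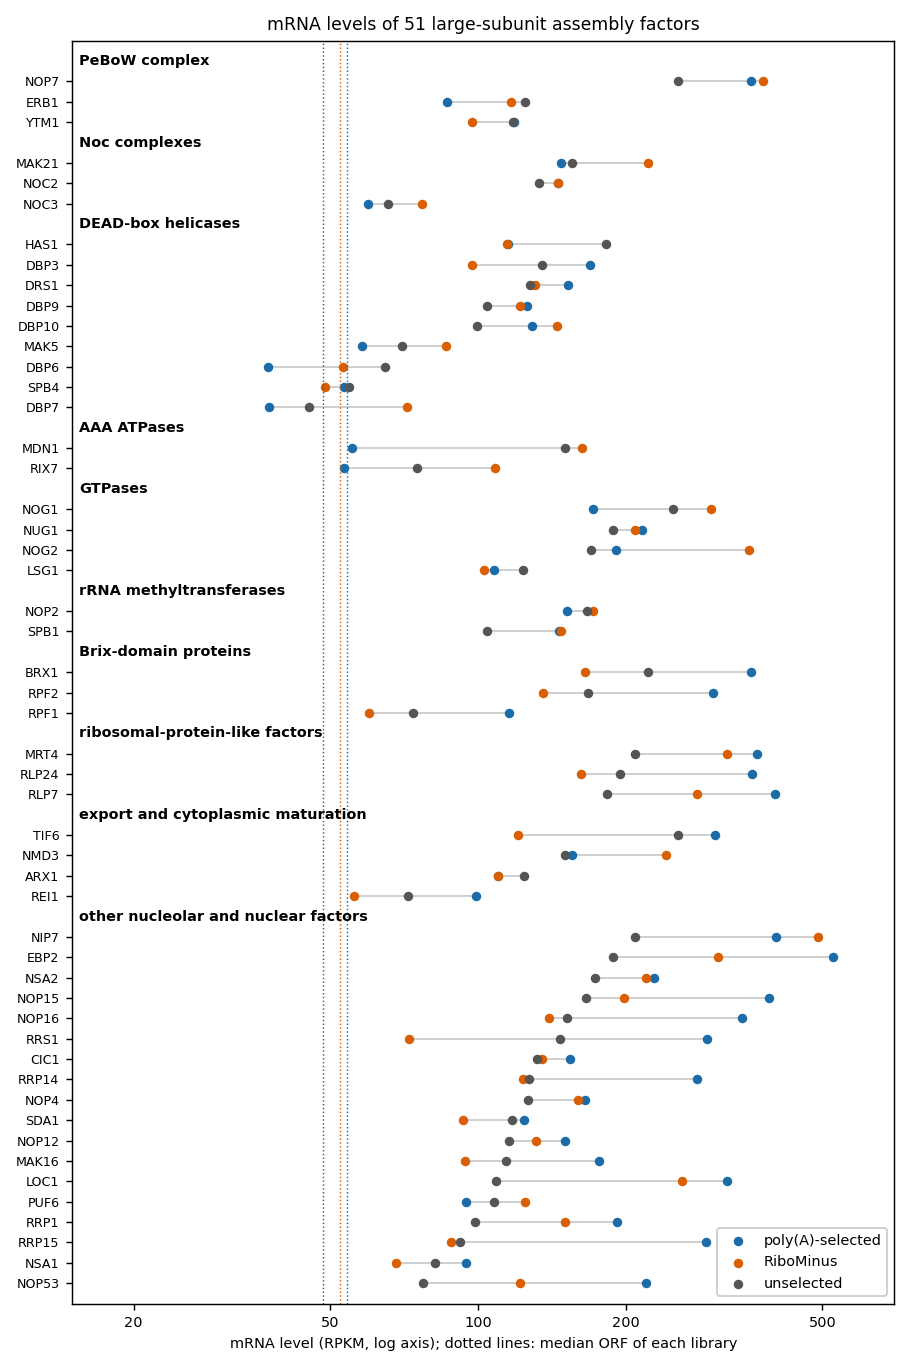
mRNA level (RPKM, log axis) of each of the 51 assembly factors, grouped by role, in the poly(A)-selected (blue), RiboMinus (orange) and unselected (grey) libraries; each point is 1 library and the grey line spans the 3. Dotted lines mark the median ORF of each library, at 54.1, 52.5 and 48.4 RPKM, and nearly all factors lie to the right of them.

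Comparisons between libraries use a ratio, the log2 of RPKM plus 0.5 in one library over the other, minus its median over the 5199 ORFs kept, so that 0 is the median ORF of that comparison. The medians removed were 0.24 for poly(A)-selected over unselected, 0.076 for RiboMinus over unselected and 0.11 for poly(A)-selected over RiboMinus. A factor counts as higher or lower at 1.5-fold, a rule of size. Intervals are 95% Clopper-Pearson (exact binomial) intervals of the reads; they cover the error of counting alone, and as no molecular identifiers are described, several reads may stem from 1 molecule.

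The poly(A)-selected and unselected libraries address whether capture by the tail alters relative mRNA levels. RRP15, LOC1, NOP53 and EBP2, 4 RNA-associated nucleolar factors, were at least 2-fold higher after selection, and MDN1 and DBP6 were at least 2-fold lower. At 1.5-fold NIP7, RLP7, NOP15, RLP24, NOP16, RPF2, RRP14, RRS1 and RRP1 were also higher, and NOG1, HAS1, ERB1 and RIX7 also lower. Of the 51, 13 were at least 1.5-fold higher, or 25.5%, against 20.4% of the ORFs kept, and 6 were lower, or 11.8%, against 21.3%. At 2-fold, 4 were higher against a background of 6.60%, and 2 lower against 8.64%. These shares are near the background or below it, and the median ratio of the factors was 0.030. The counting interval was clear of 0 for all 19 factors past 1.5-fold. The trend along coding length was then removed (as a running median, called here the length trend). After that, 6 of the 13 higher and 2 of the 6 lower factors still passed 1.5-fold. NIP7, NOP15, RLP24, NOP16, RPF2, RRS1 and RRP1, and NOG1, MDN1, ERB1 and RIX7, did not. NOP7, NOP4, DRS1, SPB1 and DBP10 newly passed as higher. That made 11 higher and 2 lower, against 7.001% and 9.50% of the ORFs kept. Without centring, 17 were higher and 3 lower, against 31.9% and 12.6% of the ORFs kept.

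The RiboMinus and unselected libraries address whether removal of rRNA alters relative mRNA levels. LOC1 and NIP7 were at least 2-fold higher after RiboMinus, TIF6 and RRS1 at least 2-fold lower, and the other factors stayed within 2-fold. NOG2, EBP2 and NMD3 also passed 1.5-fold higher and HAS1 1.5-fold lower. At 1.5-fold 5 were higher, or 9.80%, against 14.6% of the ORFs kept, and 3 were lower, or 5.88%, against 16.0%. At 2-fold there were 2 higher and 2 lower, against 4.85% and 5.73%. The median ratio was 0.053. Without centring 10 were higher and 3 lower, against 17.9% and 13.5% of the ORFs kept. Between poly(A)-selected and RiboMinus RNA, 15 were higher after selection and 9 lower, or 29.4% and 17.6%, against 25.8% and 24.0% of the ORFs kept. At 2-fold the counts were 8 and 4, against 14.1% and 10.8%, and the median ratio was 0.019. With the length trend removed, 8 of these 15 and 2 of these 9 still passed 1.5-fold. DRS1 and SDA1 newly passed as higher and NIP7 as lower. That made 10 higher and 3 lower, against 17.6% and 18.4% of the ORFs kept. The 3 comparisons share libraries and are not independent. In all of them together, 21 of the 51 stayed within 1.5-fold, or 41.2%, against 32.3% of the ORFs kept.

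**Figure D3:**
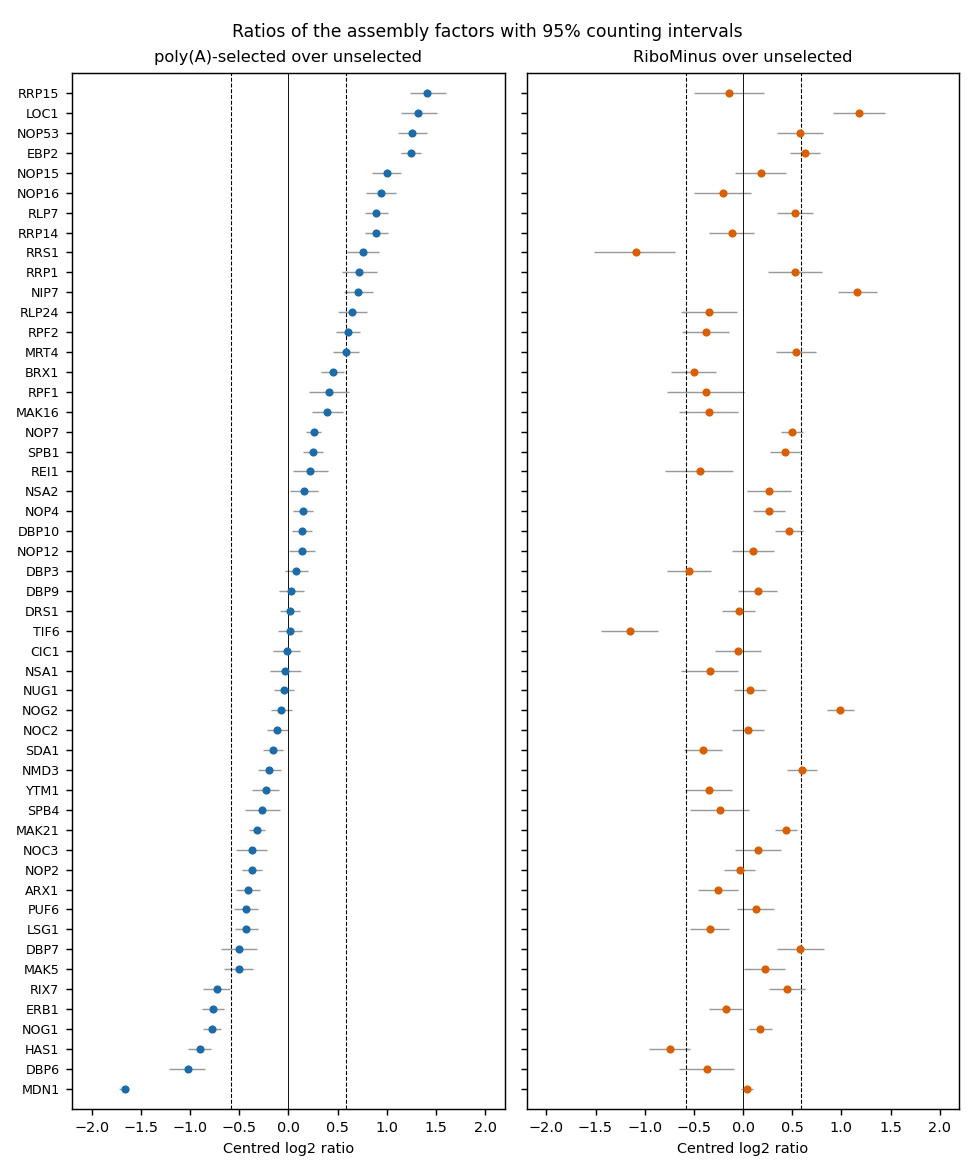
Centred log2 ratio of each assembly factor, poly(A)-selected over unselected (left, blue) and RiboMinus over unselected (right, orange), ordered by the left panel; bars are 95% counting intervals and dashed lines mark 1.5-fold. The left panel runs from -1.66 for MDN1 to 1.41 for RRP15, and the right panel from -1.15 for TIF6 to 1.17 for LOC1.

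The PeBoW complex, a trimer of NOP7, ERB1 and YTM1 that is needed to process the rRNA precursor, was unequal at the mRNA level. NOP7 (YGR103W) had 358 RPKM after poly(A) selection, 379 RPKM after RiboMinus and 254 RPKM in the unselected library. ERB1 (YMR049C) had 86.5 RPKM after poly(A) selection, 117 RPKM after RiboMinus and 125 RPKM in the unselected library. YTM1 (YOR272W), a WD-repeat partner of Erb1, had 118 RPKM after poly(A) selection, 97.3 RPKM after RiboMinus and 118 RPKM in the unselected library. NOP7 was thus the highest of the 3 in every library, while ERB1 and YTM1 changed order with the preparation. After poly(A) selection ERB1 was 1.70-fold lower than in unselected RNA relative to the median ORF, with a ratio of -0.76 (interval -0.88 to -0.66), and -0.14 with the length trend removed. The ratios of NOP7 and YTM1 were 0.26 and -0.23, within 1.5-fold, although NOP7 was at 0.59 with the length trend removed.

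Noc proteins form a nucleolar pair of MAK21 (also called NOC1) with NOC2 and a nuclear pair of NOC2 with NOC3, which accompany the particle in turn. MAK21 (YDR060W) had 147 RPKM after poly(A) selection, 222 RPKM after RiboMinus and 155 RPKM in the unselected library. NOC2, the partner common to both pairs, had 145 RPKM after poly(A) selection, 145 RPKM after RiboMinus and 133 RPKM in the unselected library. NOC3 had 59.8 RPKM after poly(A) selection, 77.1 RPKM after RiboMinus and 65.6 RPKM in the unselected library. NOC3 was the lowest of the 3 in every library, and no library placed it within 1.5-fold of NOC2. MAK21 was 1.62-fold lower after poly(A) selection than after RiboMinus, with a ratio of -0.70 (interval -0.81 to -0.59). Once the trend with coding length was removed, that ratio was 0.14.

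DEAD-box RNA helicases, which unwind or clamp RNA with ATP, had the lowest median of any role in the RiboMinus and unselected libraries, with medians over 9 genes of 115, 97.2 and 99.4 RPKM in the poly(A)-selected, RiboMinus and unselected libraries. HAS1 (YMR290C), which works on precursors of both subunits, had 115 RPKM after poly(A) selection, 115 RPKM after RiboMinus and 182 RPKM in the unselected library. It was the most abundant helicase of the unselected library and the single factor past 1.5-fold lower after both treatments, with ratios of -0.90 (interval -1.02 to -0.78) after poly(A) selection and -0.74 (interval -0.95 to -0.54) after RiboMinus. That single factor is 1.96% of the 51, against 2.44% of the ORFs kept that were lower after both. DBP6 (YNR038W), a helicase of the earliest particles, had 37.5 RPKM after poly(A) selection, 53.1 RPKM after RiboMinus and 64.9 RPKM in the unselected library, and its ratio after poly(A) selection was -1.02 (interval -1.21 to -0.85). DBP7 had 37.6 RPKM after poly(A) selection, 71.6 RPKM after RiboMinus and 45.3 RPKM in the unselected library. DBP7 and DBP6 were the lowest 2 factors of all 51 by mean RPKM, and both were lower after poly(A) selection than after RiboMinus, with ratios of -1.03 and -0.61, or -0.52 and -0.36 with the length trend removed. MAK5, first found by its need for the yeast killer virus, had 58.1 RPKM after poly(A) selection, 86.1 RPKM after RiboMinus and 70.0 RPKM in the unselected library, and its ratio between these libraries was -0.67, or -0.12 with the length trend removed. SPB4, first found as a suppressor of mutants of the poly(A)-binding protein, had 53.5 RPKM after poly(A) selection, 48.8 RPKM after RiboMinus and 54.6 RPKM in the unselected library. DBP3, a helicase of early cleavage, had 168 RPKM after poly(A) selection, 97.2 RPKM after RiboMinus and 135 RPKM in the unselected library. SPB4 kept nearly the same value in each library, and DBP3 was 1.60-fold higher after poly(A) selection than after RiboMinus. The other helicases, DRS1, DBP9 and DBP10, stayed within 1.5-fold in each comparison; with the length trend removed, DRS1 and DBP10 passed it after poly(A) selection over unselected RNA, at 0.59 and 0.92.

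The AAA ATPases pull finished factors off the particle. MDN1 (YLR106C, chromosome XII, 349006 to 363738; named REA1 in the R64 annotation), a dynein-like motor that strips Ytm1 and Erb1, has a coding length of 14730 nt, the longest of the ORFs kept. MDN1 had 55.5 RPKM after poly(A) selection, 162 RPKM after RiboMinus and 150.0 RPKM in the unselected library, from 5288, 3153 and 9835 reads. The poly(A)-selected value stood far below the other 2, which lay close to each other. Relative to the median ORF MDN1 was 3.17-fold lower after poly(A) selection than in unselected RNA, with a ratio of -1.66 (interval -1.72 to -1.62), and its RiboMinus ratio was 0.039 (interval -0.019 to 0.10). RIX7 (YLL034C), which releases Nsa1, had 53.4 RPKM after poly(A) selection, 108 RPKM after RiboMinus and 75.3 RPKM in the unselected library. The poly(A) ratio of RIX7 was -0.73 (interval -0.87 to -0.60). With the length trend removed neither ATPase passed 1.5-fold, MDN1 at -0.52 and RIX7 at -0.068.

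The GTPases serve as checkpoints along the path to the cytoplasm. NOG1 (YPL093W), which spans much of nuclear assembly, had 172 RPKM after poly(A) selection, 297 RPKM after RiboMinus and 249 RPKM in the unselected library, with a poly(A) ratio of -0.78 (interval -0.86 to -0.69). NOG2 (YNR053C), which holds the site later taken by the export adaptor Nmd3, had 190.5 RPKM after poly(A) selection, 355 RPKM after RiboMinus and 169.6 RPKM in the unselected library. NOG2 was 1.99-fold higher after RiboMinus than in unselected RNA, with a ratio of 0.99 (interval 0.85 to 1.13); it is the single spliced gene of the 51, and how the counting treated its intron is not stated. NUG1 had 215 RPKM after poly(A) selection, 208 RPKM after RiboMinus and 188 RPKM in the unselected library, an even level across preparations. LSG1 (YGL099W), the cytoplasmic GTPase that frees Nmd3, was the least abundant GTPase, with 108 RPKM after poly(A) selection, 103 RPKM after RiboMinus and 123 RPKM in the unselected library. All 4 GTPases had poly(A) ratios below 0, of which NOG1 alone passed 1.5-fold, and the intervals of NUG1 and NOG2 included 0. With the length trend removed, NOG1 was at -0.38, LSG1 at -0.055, NOG2 at 0.057 and NUG1 at 0.16.

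The methyltransferases SPB1 and NOP2 act on the large rRNA. SPB1 (YCL054W) had 146 RPKM after poly(A) selection, 148 RPKM after RiboMinus and 104 RPKM in the unselected library. NOP2 (YNL061W) had 151 RPKM after poly(A) selection, 171 RPKM after RiboMinus and 166 RPKM in the unselected library. Neither passed 1.5-fold in a comparison, although SPB1, a long gene of 2523 nt, had a poly(A) ratio of 0.91 with the length trend removed. Brix-domain proteins bind rRNA as partners of other factors. BRX1, a partner of Ebp2, had 358 RPKM after poly(A) selection, 165 RPKM after RiboMinus and 222 RPKM in the unselected library. RPF2 (YKR081C), which brings in the 5S RNA particle together with Rrs1, had 299.5 RPKM after poly(A) selection, 135 RPKM after RiboMinus and 167 RPKM in the unselected library. RPF1, a partner of Mak16, had 116 RPKM after poly(A) selection, 60.0 RPKM after RiboMinus and 73.8 RPKM in the unselected library. The poly(A)-selected value was the highest and the RiboMinus value the lowest for each of the 3, and their ratios between these libraries were 1.002, 1.03 and 0.83. Against unselected RNA, RPF2 alone passed 1.5-fold after selection, with a ratio of 0.60 (interval 0.48 to 0.73), or 0.37 with the length trend removed. On that footing RPF2 alone still passed between poly(A)-selected and RiboMinus RNA, where BRX1 was at 0.55, RPF2 at 0.72 and RPF1 at 0.39.

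A further 3 factors resemble ribosomal proteins. MRT4 (YKL009W), which holds the place of the stalk protein P0, had 368 RPKM after poly(A) selection, 319 RPKM after RiboMinus and 208 RPKM in the unselected library. RLP24 (YLR009W), which is exchanged for Rpl24, had 359 RPKM after poly(A) selection, 161 RPKM after RiboMinus and 194 RPKM in the unselected library. RLP7 (YNL002C), a relative of Rpl7 at the processing site of the precursor, had 401 RPKM after poly(A) selection, 278 RPKM after RiboMinus and 183 RPKM in the unselected library. In the poly(A)-selected and unselected libraries the 3 lay within 1.12-fold and 1.14-fold of each other, and in the RiboMinus library within 1.98-fold. After poly(A) selection RLP7 and RLP24 were higher than in unselected RNA, with ratios of 0.89 (interval 0.78 to 1.01) and 0.65 (interval 0.50 to 0.80), while MRT4, at 0.58, was just short of 1.5-fold. RLP24 is a short gene of 597 nt, and its ratio was near 0 once the trend with length was removed. RPP0, the ribosomal counterpart of MRT4, was chosen for comparison after its values were seen. RPP0 had 7177, 4381 and 4985 RPKM, or 19.5, 13.7 and 24.0 times the level of MRT4.

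Export and the cytoplasmic steps involve TIF6, ARX1, NMD3 and REI1. TIF6 (YPR016C, chromosome XVI, 592332 to 593069), yeast eIF6, keeps the subunits apart until the particle is ready. TIF6 had 303 RPKM after poly(A) selection, 121 RPKM after RiboMinus and 254 RPKM in the unselected library. Its RiboMinus value was the low one, 2.21-fold below unselected RNA, with a ratio of -1.15 (interval -1.44 to -0.87) from 117 RiboMinus reads, while its poly(A) ratio was 0.015 (interval -0.11 to 0.14). NMD3 (YHR170W), the adaptor to the exportin Crm1, had 155 RPKM after poly(A) selection, 240.3 RPKM after RiboMinus and 150.3 RPKM in the unselected library, and was higher after RiboMinus with a ratio of 0.60 (interval 0.44 to 0.76), or 0.50 among ORFs with at least 100 reads in both libraries. ARX1, an export factor at the tunnel exit, had 110.0 RPKM after poly(A) selection, 109.6 RPKM after RiboMinus and 124 RPKM in the unselected library, and stayed within 1.5-fold in each comparison. REI1 (YBR267W), which recycles Arx1, had 99.3 RPKM after poly(A) selection, 56.0 RPKM after RiboMinus and 72.0 RPKM in the unselected library; its ORF overlaps another annotated ORF, the only such case of the 51, and reads of either gene can fall there.

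The remaining 18 nucleolar and nuclear factors, many of them small RNA-binding proteins of early particles, held 10 of the 13 that were higher after poly(A) selection, and 0 of the 6 that were lower. That is 55.6% of the 18 higher, against 20.4% of the ORFs kept, and none lower, against 21.3%. With the length trend removed, 5 of the 10 still passed, and NOP4 newly passed at 0.59. Over the ORFs kept, 7.001% were higher on this footing. Those that no longer passed were NIP7 at 0.018, RRS1 at 0.12, RRP1 at 0.33, NOP16 at 0.41 and NOP15 at 0.43. RRP15 (YPR143W, chromosome XVI, 818323 to 819075), a component of early particles, had 289.9 RPKM after poly(A) selection, 88.0 RPKM after RiboMinus and 91.9 RPKM in the unselected library, and was 2.66-fold higher after selection with a ratio of 1.41 (interval 1.24 to 1.60). LOC1 (YFR001W, chromosome VI, 149110 to 149724), which also takes part in localising ASH1 mRNA, had 321 RPKM after poly(A) selection, 259 RPKM after RiboMinus and 109 RPKM in the unselected library. The unselected value of LOC1 was the low one, and its ratios were 1.32 (interval 1.14 to 1.51) after poly(A) selection and 1.17 (interval 0.92 to 1.44) after RiboMinus. NOP53 (YPL146C), which guides the exosome to the precursor, had 219 RPKM after poly(A) selection, 122 RPKM after RiboMinus and 77.3 RPKM in the unselected library, with a poly(A) ratio of 1.26 (interval 1.12 to 1.41). EBP2 (YKL172W, chromosome XI, 125759 to 127042), a partner of Rrs1, had 526 RPKM after poly(A) selection, 307 RPKM after RiboMinus and 188 RPKM in the unselected library, and was the most abundant of the 51 in the poly(A)-selected library. NIP7 (YPL211W, chromosome XVI, 153495 to 154040), needed to process the precursor, had 402 RPKM after poly(A) selection, 491 RPKM after RiboMinus and 208 RPKM in the unselected library, and was the most abundant in the RiboMinus library. NIP7, EBP2 and LOC1 were the 3 factors past 1.5-fold higher after both treatments, or 5.88% of the 51, against 6.02% of the ORFs kept. Both comparisons share the unselected library, NIP7 did not pass after poly(A) selection once the length trend was removed, and EBP2 was at 0.54 after RiboMinus among ORFs with at least 100 reads in both libraries.

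RRS1 (YOR294W, chromosome XV, 868340 to 868951), the partner of Rpf2 in loading the 5S RNA particle, had 292 RPKM after poly(A) selection, 72.3 RPKM after RiboMinus and 146 RPKM in the unselected library. The poly(A)-selected value was the highest and the RiboMinus value the lowest. It was 1.69-fold higher after poly(A) selection and 2.13-fold lower after RiboMinus, with ratios of 0.75 (interval 0.59 to 0.93) and -1.09 (interval -1.52 to -0.69), the second from 58 RiboMinus reads. Between the 2 treated libraries it had the widest ratio of the 51, 1.90 (interval 1.52 to 2.31). NOP15 (YNL110C), which sits at the foot of the early particle, had 390.1 RPKM after poly(A) selection, 198 RPKM after RiboMinus and 165 RPKM in the unselected library. NOP16 had 344 RPKM after poly(A) selection, 139 RPKM after RiboMinus and 152 RPKM in the unselected library. RRP14 had 278 RPKM after poly(A) selection, 124 RPKM after RiboMinus and 127 RPKM in the unselected library. Their poly(A) ratios of 0.997, 0.94 and 0.89 came with RiboMinus ratios near 0, of 0.18, -0.20 and -0.12. The 12 factors not given one by one had 94.5 to 227 RPKM after poly(A) selection, 68.3 to 219 after RiboMinus and 81.8 to 173 in the unselected library. They are NSA2, NOP4, RRP1, CIC1, DRS1, NOP12, MAK16, DBP10, DBP9, SDA1, PUF6 and NSA1.

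The poly(A) ratio was lower for longer factors. Among the 17 shortest factors (543 to 1128 nt) the median ratio was 0.65, with 10 past 1.5-fold higher and 0 lower. The middle 17 had -0.032. Among the 17 longest (1887 to 14730 nt) it was -0.43, with 0 higher and 5 lower. Over the ORFs kept of all lengths, this ratio was past 1.5-fold higher for 20.4% and lower for 21.3%. Shares among ORFs of like length were not counted. Between this ratio and coding length Spearman's rho was -0.73 over the 51 factors and -0.76 over the ORFs kept, points that all come from the same pair of libraries. For RiboMinus over unselected the rho was 0.11 over the factors, and for poly(A)-selected over RiboMinus -0.72. With coding GC content the RiboMinus ratio had a rho of -0.20 over the factors and -0.38 over the ORFs kept; the factors span 34.1% to 44.6% GC. The 5 factors past 1.5-fold higher after RiboMinus ran from 37.1% GC (LOC1) to 41.5% (NOG2) and the 3 lower ones from 37.8% (HAS1) to 41.3% (TIF6), so their GC ranges overlap.

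**Figure D4:**
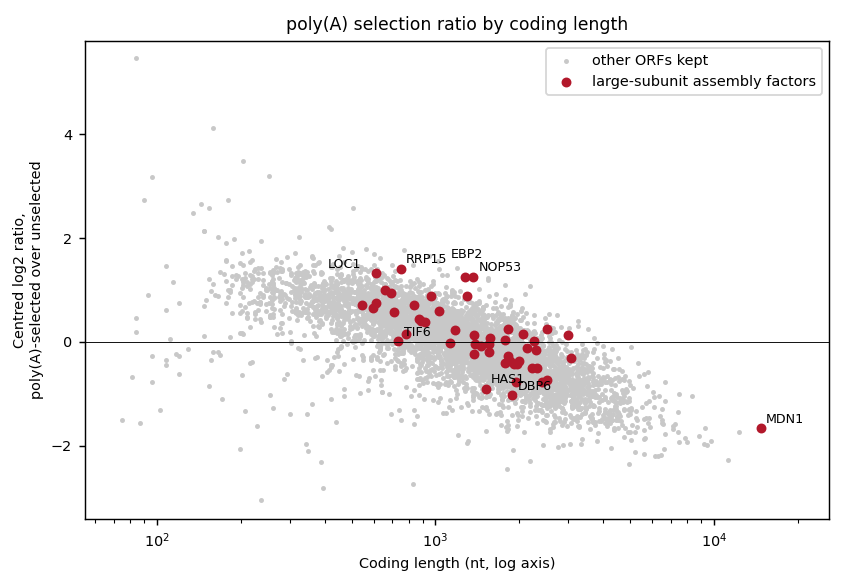
Centred log2 ratio of poly(A)-selected over unselected RNA against coding length (nt, log axis) for the 51 assembly factors (red) and the other ORFs kept (grey); each point is 1 ORF. The factors follow the downward band of all ORFs, RRP15 is the highest factor at 1.41, and MDN1 lies at the far right at -1.66.

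A running median along coding length, each time over 10% of the ORFs, was then taken off the ratio. After this step 11 of 51 factors were at least 1.5-fold higher after poly(A) selection and 2 lower, against 7.001% and 9.50% of the ORFs kept. EBP2, RLP7, LOC1, RRP14, RRP15 and NOP53 were past 1.5-fold higher with and without this step. NOP53 had a length-corrected ratio of 1.30, EBP2 1.26, RRP15 0.95, DBP10 0.92, RRP14 0.92 and SPB1 0.91. HAS1 and DBP6 were the 2 lower factors, at -0.72 and -0.66. MDN1 had -0.52; as the longest ORF kept, it was set against shorter ones.

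The proteins of these genes are rich in lysine, which AAA and AAG codons encode. Their median lysine share was 10.6%, against 7.37% over the ORFs kept and 8.91% over the small-subunit factors, as translated from R64. It ran from 0.816% in TIF6 to 20.1% in LOC1. The 17 factors with the least lysine (0.816% to 9.74%) had a median length-corrected poly(A) ratio of -0.068, with 0 past 1.5-fold higher and 2 lower. The middle 17 had 0.10. The 17 with the most (11.8% to 20.1%) had 0.43, with 8 higher and 0 lower. Over the ORFs kept of any lysine share, 7.001% were higher and 9.50% lower on this length-corrected ratio. Shares among ORFs equally rich in lysine were not counted. Spearman's rho between lysine share and this ratio was 0.68 over the 51 factors, 0.29 over the 46 small-subunit factors and 0.17 over the ORFs kept. For the share of A in the coding sequence it was 0.66 over the factors and for the longest run of A 0.43. RRP15 has a run of 10 A, the longest of the 51, where the median is 7. With RiboMinus over unselected, the length-corrected ratio had a rho of 0.17 with lysine share. Among the lysine-rich factors below 0, chosen after their values were seen, were NSA2, at 14.2% lysine and a ratio of -0.27, and CIC1, at 14.1% and -0.15. Genes are not independent replicates, these correlations were chosen from several with the values in view, and what the base composition contributes was not tested.

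**Figure D5:**
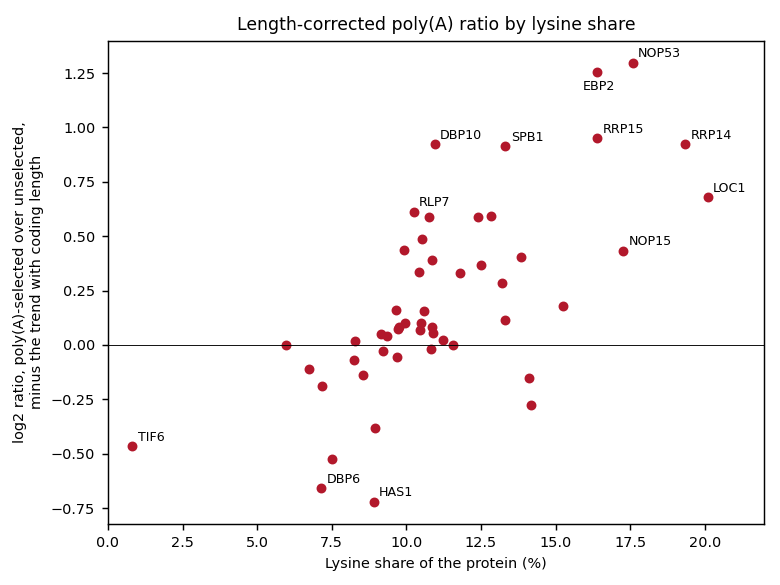
Poly(A)-selected over unselected log2 ratio of each of the 51 assembly factors after removal of the trend with coding length, against the lysine share of its protein (%); each point is 1 factor. TIF6, with 0.816% lysine, lies at -0.46, and EBP2 and NOP53, with 16.4% and 17.6%, lie at 1.26 and 1.30.

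Other genes of the pathway gave the following counts at 1.5-fold. In a list of 25 further large-subunit factors, of which 23 are listed, 8 were higher and 6 lower after poly(A) selection than in unselected RNA, with a median ratio of 0.19. These are 34.8% and 26.1% of the list, against 20.4% and 21.3% of the ORFs kept. Its ends were CGR1, a nucleolar protein gene of 360 nt at 1.66, and URB1, an early factor gene of 5292 nt at -1.63. Of the 46 small-subunit factors, 2 were higher and 12 lower, or 4.35% and 26.1%, with a median of -0.21. NOB1, the endonuclease that forms the end of 18S rRNA, was at 0.69, and UTP20, with 7479 nt, was at -1.93. Median coding length was 1515 nt over the 51 factors and, over the small-subunit list, 1722 nt, and with the length trend removed the median ratios were 0.10 for the 51 and 0.15 for the small-subunit list. After RiboMinus the further large-subunit factors had 3 higher and 1 lower, from BUD20 at -0.79 to ECM1 at 1.06, and the small-subunit factors 3 and 1, from PNO1 at -0.71 to DIP2 at 0.87. These are 13.0% and 4.35% of the first list and 6.52% and 2.17% of the second, against 14.6% and 16.0% of the ORFs kept. Between poly(A)-selected and RiboMinus RNA, the ends of the 2 lists were BUD20 at 1.67 and URB1 at -1.72, and PNO1 at 1.35 and UTP20 at -2.21.

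The rank order of the 51 factors was only partly shared by the libraries. Spearman's rho of RPKM over the factors was 0.70 between the poly(A)-selected and unselected, 0.74 between the RiboMinus and unselected, and 0.66 between the poly(A)-selected and RiboMinus libraries. Over the ORFs kept, whose levels span a far wider range, the values were 0.91, 0.93 and 0.86. EBP2 and NIP7 were the top pair of the poly(A)-selected library, at 526 and 402 RPKM. NIP7 and NOP7 led the RiboMinus library, at 491 and 379 RPKM. TIF6 and NOP7 led the unselected library, at 254 RPKM each.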

How the data were processed

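The deposited RPKM values of 3 RNA-seq libraries were made by the authors and are given to 2 decimals, with no header. The submitters' processing notes name TopHat2, Bowtie2 and sacCer3 as the build. Their versions and roles, the read counter, strand handling and the annotation used were not given in the sources used here. A further 2 columns of per-sample values with no matching sample label (footprints and RiboZero) were not used; only their ORF names were read. All 5293 ORF names matched the R64 annotation, the sequence of sacCer3, 203 after a hyphen was restored, and sequences are from RefSeq R64.

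Reads came from the step of RPKM times coding length without the stop codon. Among values below 100 reads, 99.1%, 99.9% and 99.9% were whole to within 0.1 read in the poly(A)-selected, RiboMinus and unselected libraries. A count of 0 allows 3 reads, or 0.464, 2.28 and 0.674 RPKM for 1 kb. With 1 library each, no count model or other test was run. The read recovery and ratios were tested on simulated data. No member shares over 1% of its 30-mers with other places in the genome. Factors given one by one are the 5 highest and lowest by mean RPKM and by each ratio, and all members of roles with up to 4. Members and lists were chosen with earlier results of these data known. Alternatives were pseudocounts of 0.1 and 2, other filters, no centring, and removal of trends with length or GC content. Python 3.11.15, pandas 2.3.3, NumPy 2.4.6 and SciPy 1.17.1 were used.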

Additional observations from a re-analysis of the deposited data

How the results depend on the processing

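Pseudocounts of 0.1 and 2, no filter and a mean of at least 10 RPKM kept the counts of higher and lower factors within 1.5 times the main counts in the 3 comparisons. For poly(A)-selected over unselected, no centring gave 3 lower factors, against 12.6% of the ORFs kept, and a median of 0.27. Removal of the length trend gave 2 lower, against 9.50%. A 2-fold rule gave 4 higher and 2 lower, against 6.60% and 8.64%. For RiboMinus over unselected, no centring gave 10 higher, removal of the GC trend gave 6 lower, at least 100 reads in both libraries gave 3 higher of the 47 factors that pass it, and a 2-fold rule gave 2 higher. For poly(A)-selected over RiboMinus, removal of the length trend gave 3 lower, against 18.4% of the ORFs kept. At least 100 reads gave 4 lower of 47, against 21.0% of the ORFs that pass it, and a median of 0.29. A 2-fold rule gave 8 higher and 4 lower, against 14.1% and 10.8% of the ORFs kept. Among named ratios past 1.5-fold, removal of the length trend changed the sign of 2. RLP24, poly(A)-selected over unselected, went to -0.00080, and MAK21, poly(A)-selected over RiboMinus, to 0.14. Some named ratios within 1.5-fold changed sign too, such as MAK21, poly(A)-selected over unselected, from -0.32 to 0.49. The cause was not tested. Without REI1, whose ORF overlaps another, a choice made after seeing the data, the median levels were 154, 133 and 127 RPKM in the poly(A)-selected, RiboMinus and unselected libraries. Of the values of single named factors under these settings, 738 moved by up to 0.5 of the width of their counting interval and 188 by more. The RiboMinus library is the shallowest, and RRS1 rests on 58 of its reads. No paired analysis was possible because each group has 1 library.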
